A study of Mus musculus with 2 samples.

Results

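Non-cycling crypt stem-like cells are the epithelial cells of these small intestine libraries that carried Olfm4 or Lgr5 transcripts and few or no transcripts of cell division genes. They numbered 67 of 16451 barcodes, 54 in control 1 and 13 in control 2. A barcode, the tag that stands for 1 captured cell, was a member when it held at least 500 genes and under 25% mitochondrial transcripts and met each of 4 further conditions. It carried at least 2 unique molecular identifiers (UMIs, each standing for 1 captured RNA molecule) of Olfm4 or at least 1 of Lgr5. It carried at least 1 UMI of Epcam, an epithelial adhesion molecule, and 0 of Ptprc, the pan-leukocyte CD45. The mucus genes Muc2, Fcgbp, Clca1 and Zg16 made up under 0.5% of its UMIs. The division genes Top2a, Mki67, Ube2c, Cdk1, Birc5 and Pclaf summed to under 3 UMIs. The members were chosen by the measured UMIs of these 14 genes, so the levels of those genes are a description and were not tested.

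The series set out from mice with a knockdown of 1 of 2 muscarinic receptors, M1 or M3, which bind acetylcholine, while its single-cell libraries came from controls. Both libraries are C57BL/6 proximal small intestine with no age given in the labels, the first titled for M1 (control 1) and the second for M3 (control 2). A villus-rich fraction was released in cold 20 mM EDTA over 60 min and a crypt-rich fraction in TrypLE, a trypsin-like enzyme, over 10 min, and the fractions were pooled before 10x Genomics 3′ libraries were made. There was 1 group of 2 libraries, so the comparisons below are between kinds of cells within the libraries. No label states that each library is a different animal. Unless stated otherwise, each library's own level was fitted as a block. The p-values therefore measure only how far differences between cell groups vary between these 2 libraries, with variance estimates shared across genes.

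Crypt base columnar stem cells sit between Paneth cells at the bottom of the small intestinal crypt and renew the epithelium throughout life. Wnt and R-spondin signals acting through Lgr5 and its relatives, together with Notch signals from neighbouring Paneth cells, are known to keep them undifferentiated, and Ascl2 is the transcription factor that carries much of the Wnt response. Olfm4, a secreted glycoprotein, marks these cells and their nearest daughters more broadly than Lgr5 does.

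The 250 bases before and 50 after the transcription starts of 3 genes whose transcripts mark or were higher in these cells are shown, since TCF/LEF proteins, the nuclear effectors of Wnt, are known to bind such regions. Olfm4 was part of the rule, Ascl2 had one of the largest differences below, and Zbtb38, a zinc finger protein that binds methylated DNA, was one of 3 crypt stem cell genes whose window held a TCF/LEF motif. Capitals mark a match to ATCAAAG or AACAAAG on either strand. The sequences are RefSeq's on GRCm38.p6, for Olfm4 chr14:80000052-80000351 (plus strand), for Ascl2 chr7:142969215-142969514 (minus strand) and for the first of 3 Zbtb38 windows chr9:96731626-96731925 (minus strand).
Olfm4: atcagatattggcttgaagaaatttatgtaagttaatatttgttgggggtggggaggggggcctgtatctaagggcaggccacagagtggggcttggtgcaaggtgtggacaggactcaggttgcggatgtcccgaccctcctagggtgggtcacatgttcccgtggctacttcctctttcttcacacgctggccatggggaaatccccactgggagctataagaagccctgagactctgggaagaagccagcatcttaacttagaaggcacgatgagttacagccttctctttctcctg
Ascl2: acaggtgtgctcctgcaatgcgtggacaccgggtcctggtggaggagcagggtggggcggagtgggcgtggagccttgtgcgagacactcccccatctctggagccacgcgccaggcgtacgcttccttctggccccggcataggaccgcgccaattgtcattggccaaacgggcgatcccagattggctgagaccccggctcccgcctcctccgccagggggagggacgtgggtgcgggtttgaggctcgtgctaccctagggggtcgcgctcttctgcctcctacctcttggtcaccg
Zbtb38: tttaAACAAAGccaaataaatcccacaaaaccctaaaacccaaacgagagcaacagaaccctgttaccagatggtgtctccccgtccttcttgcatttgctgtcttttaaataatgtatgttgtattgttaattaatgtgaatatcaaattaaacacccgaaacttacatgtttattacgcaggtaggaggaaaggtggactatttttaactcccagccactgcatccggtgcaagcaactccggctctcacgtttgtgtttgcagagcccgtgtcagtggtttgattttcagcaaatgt
The windows of Olfm4 and Ascl2 held 0 matches, and the match in the Zbtb38 window began 246 bases before the start. Of the 34 crypt stem cell genes listed for this report, 22 had a window and 3 of them (13.6%) held a match, namely Sorbs2, Tnfrsf19 and Zbtb38. Over all 32851 promoter windows the share was 9.33%. A listed gene counted when any of its windows matched, while the share over all promoters counts each window singly. The shares are therefore unlike measures, and a gene with several windows has more places for a match. The Zbtb38 windows not shown held 0 matches. A window without these letters says nothing about binding elsewhere in the gene.

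Members made up 2.66% of the epithelial barcodes of control 1 (54 of 2030, 95% exact binomial interval 2.005 to 3.457%) and 0.946% of those of control 2 (13 of 1375, 0.504 to 1.61%). Intervals here and below cover counting error only. The 2 intervals do not overlap, and with 1 group no test of the share was made. Within the gene and mitochondrial limits, 147 barcodes of control 1 and 60 of control 2 met the Olfm4 or Lgr5 criterion. Of these, 39 and 19 were set aside as cycling crypt cells because they held 3 or more division UMIs, and 5 and 1 as mucus-rich. Epcam was at 0 in a further 27 and 12, and 22 and 15 carried Ptprc beside Epcam. Among lymphocyte-gated barcodes (Ptprc without Epcam), which should lack both genes, 4 of 1708 in control 1 (0.234%) and 0 of 1319 in control 2, which allows a share of up to 0.227%, met the criterion.

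Most members were recognised by Olfm4. In control 1, all 54 carried Olfm4, from 2 to 494 UMIs with a median of 4, and 8 also carried Lgr5, up to 98 UMIs. In control 2, Olfm4 ran from 0 to 34 UMIs with a median of 4, 10 members had Olfm4 without Lgr5, 2 had both and 1 had Lgr5 alone. Summed over members, Olfm4 stood at 2137 CPM (a group's UMIs of a gene scaled to a common total) in control 1 and 1964 in control 2, a mean of 2050 ± 122 (SD, n = 2 libraries). Lgr5 stood at 206 and 105 CPM. Other epithelial cells, which are the Epcam-positive, Ptprc-negative barcodes with under 2 Olfm4 UMIs and no Lgr5, had 4.48 and 4.40 CPM of Olfm4. Olfm4 lies on chromosome 14 at 79984081 to 80023139 and Lgr5 on chromosome 10 at 115450311 to 115587780 (GRCm38, GENCODE M21).

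Most members were of modest depth, with a few very deep exceptions. They held 787228 UMIs in control 1 and 66714 in control 2, with medians of 4580 and 2506 UMIs a cell. The medians of other epithelial cells were 3323.5 and 3542.5 UMIs, below the members in control 1 and above them in control 2. Among the members, depth ranged widely. The lowest and highest totals were 1182 and 166266 in control 1, against 1447 and 18844 in control 2. The 5 deepest members supplied 66.3% of the UMIs in control 1 and 76.3% in control 2, so every sum over members leans on them. Mitochondrial transcripts were a median of 0.174% and 0.383% of a member's UMIs, below the 2.76% and 3.65% of lymphocyte-gated barcodes, and the nuclear RNA Malat1 had a UMI in 57.4% and 76.9% of members, against 94.8% and 96.2% of lymphocyte-gated ones. Other epithelial cells shared this pattern, with mitochondrial medians of 0.191% and 0.25%.

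**Figure D1:**
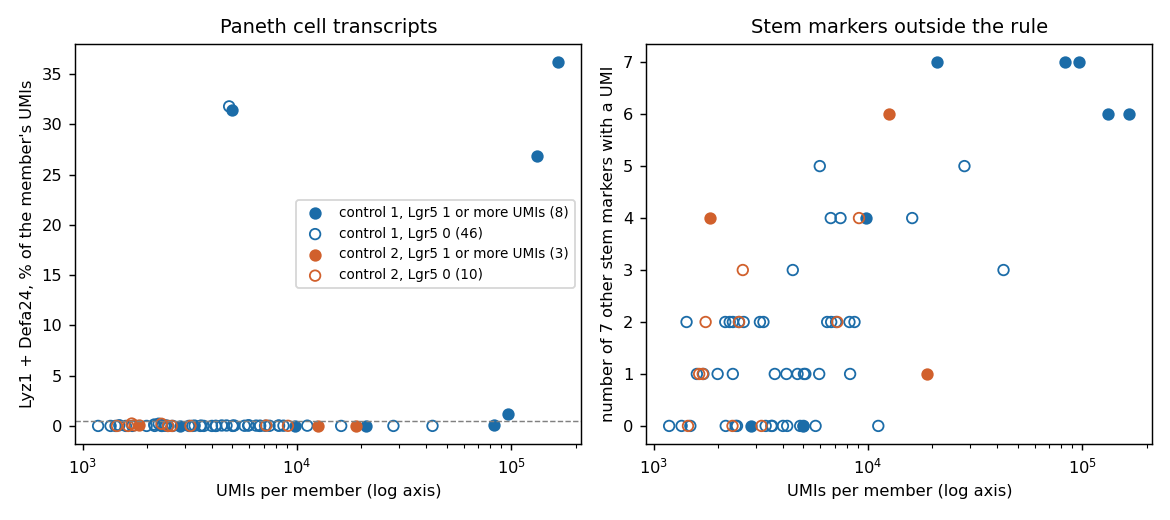
Each point is 1 member, placed by its UMIs on a log axis, with filled points for members that carried Lgr5. The left panel gives Lyz1 plus Defa24 as a percentage of the member's UMIs (dashed line, 0.5%), where 4 members stand above 26% and the rest lie at 1.17% or lower, and the right panel gives how many of 7 stem markers outside the rule had a UMI, from 0 to 7.

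Paneth cell transcripts were mixed into a few members of control 1. Lyz1 (lysozyme) and Defa24 (an alpha-defensin) are antimicrobial products of Paneth cells, and together they made up at least 0.5% of UMIs in 5 of the 67 members, all in control 1. The 4 highest held 36.2%, 31.8%, 31.4% and 26.9%, and the fifth held 1.17%. They included the 3 deepest members of all, with 166266, 132517 and 96918 UMIs. The summed members of control 1 held 116322 CPM of Defa24 and 10957 CPM of Lyz1, against 270 and 15.0 CPM in those of control 2. Without the 5 barcodes the control 1 sums were 299 and 36.7 CPM, in 381701 UMIs of 49 members. All 9 Paneth markers were above 0 in the control 1 members, and 6 of 9 in control 2, where Ang4, Mmp7 and Mptx2 were at 0. A trace of Defa24 was general, with a UMI in 51.9% and 53.8% of members and in 40.7% and 59.4% of lymphocyte-gated barcodes, and 29 of the 67 members had neither gene. Alpha-defensin genes and the lysozyme pair Lyz1 and Lyz2 are near-identical copies, so counts may be split among them. Scrublet, a doublet caller, marked 0 members, but it marked 5 of 7120 barcodes in control 1 (0.0702%), which is too few for the caller to have worked. Counts of calls below are therefore also given without these 5 Paneth-mixed members (and without every other barcode at or above 0.5%), with the adjusted p of named genes that lost their call.

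A few members were rich in enterocyte transcripts. Together, Apoa1, Apoa4, Apoc3, Fabp1, Fabp2 and Rbp2 made up a median of 0.184% of a member's UMIs. The highest shares in control 1 were 10.7%, 4.7%, 4.33% and 2.82%, and 1 member of control 2 held 4.35%. Its 18844 UMIs made it the deepest of that library, it met the rule through 1 Lgr5 UMI with 0 Olfm4, and it held 326 of the 330 Apoa1 UMIs and 359 of the 364 Apoa4 UMIs of the control 2 members. Apoa1 and Apoa4 are apolipoproteins of absorptive cells. All 10 enterocyte markers were above 0 in both libraries, at summed levels of 2331 CPM in control 1 and 14345 CPM in control 2. Stem markers were checked against the name of these cells. All 9, which include the rule's Olfm4 and Lgr5, were above 0 in control 1. In control 2, 8 of 9 were, with Tnfrsf19 at 0, and the summed levels were 3632 and 3433 CPM. The 7 markers outside the rule summed to 1289 and 1364 CPM, against 30.7 and 46.6 CPM in other epithelial cells. Tuft cell markers summed to 20.3 CPM in control 1 with Dclk1, Trpm5, Avil and Rgs13 at 0, and all 6 were at 0 in control 2. Of the 12 lymphocyte markers, Ptprc was at 0 by the rule, and the summed levels were 138 and 495 CPM. Their part in the results below was not tested beyond the values given beside each.

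Single members varied in how much of the stem signature they showed. Of 7 stem markers that the rule did not use (Ascl2, Smoc2, Slc12a2, Gkn3, Tnfrsf19, Axin2 and Rgmb), 47 of the 67 members carried at least 1, 33 at least 2 and 17 at least 3, while 20 carried none. Depth moved with this number: members with 3 or more had a median of 12590 UMIs, those with 1 or 2 had 3196, and those with none had 3261. At least 1 was carried by 68.5% and 76.9% of members, against 12.2% and 18.2% of other epithelial cells and 6.15% and 7.13% of lymphocyte-gated barcodes. The plot of members by depth shows the spread, with all 7 markers in 3 members of 21106 UMIs or more.

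At the edge of the rule, 17 members had exactly 2 Olfm4 UMIs and no Lgr5. At least 1 of the 7 markers was present in 66.7% of these in control 1 (8 of 12) and 60% in control 2 (3 of 5). Just outside, barcodes that met the rest of the rule with 1 Olfm4 UMI and no Lgr5 showed the same in 41.8% (23 of 55) and 33.3% (11 of 33), and barcodes with 0 of both in 9.21% and 12.3%. The markers' summed level was 371 and 564 CPM just inside and 61.1 and 49.7 CPM just outside. For the division genes, 43 members had 0 UMIs of the 6 genes, 15 had 1 and 9 had 2. This edge moved with depth, since 16 of 38 cycling crypt cells of control 1 and 5 of 18 of control 2 fell under 3 division UMIs once every cell was thinned to 2000 UMIs.

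Against other epithelial cells, the members had higher levels of most crypt stem cell genes and lower levels of most products of mature lineages. The comparison summed the UMIs of 67 members and of 3274 other epithelial cells per library and tested 11179 genes with edgeR's quasi-likelihood test, with the library as a block and Benjamini-Hochberg adjustment. It called 515 genes higher in members (4.61% of those tested) and 1036 lower (9.27%). The median log2 fold change of all tested genes was -0.22. Since other epithelial cells were a mixture of types, a lower gene here marks any type that makes up that mixture.

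Of 29 tested crypt stem cell genes, 27 were higher in members and 0 lower, with a median log2 fold change of 3.48. Without the Paneth-mixed barcodes 25 of 29 were higher, and without the library block 24 of 29. Ascl2, the Wnt-driven stem cell transcription factor, had 57.2 and 150 CPM in members of controls 1 and 2, against 1.10 and 0.383 CPM in other epithelial cells, a log2 fold change of 6.49 ± 0.69 (SE) with adjusted p = 2.38e-17. Both member values lay above both values of the other cells. Gkn3, a gastrokine that marks crypt base cells in mice, had 165 and 44.97 CPM, against 1.60 and 0.287 CPM (6.77 ± 0.70, adjusted p = 3.84e-18). Its control 2 value rests on 3 UMIs. Ascl2 and Gkn3 passed the count filter only through the members, where they were high, so their adjusted p-values are a description. The count of 27 includes such genes. Smoc2, a secreted matricellular protein of these cells, had 174 and 150 CPM in members, against 2.70 and 2.20 CPM in other epithelial cells (5.81 ± 0.59, adjusted p = 4.38e-19). Slc12a2, the basolateral sodium, potassium and chloride cotransporter, had 661 and 719 CPM, against 10.4 and 19.5 CPM (5.29 ± 0.64, adjusted p = 1.48e-13). With the Paneth-mixed barcodes left out and every cell thinned to 2000 UMIs, 9 of 21 tested stem genes were higher and 0 lower. Slc12a2 was at 5.11 there, Axin2 lost its call (adjusted p = 0.274), and Gkn3 and Smoc2 were not tested.

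The 4 genes spanned the list's top, and those below them kept the same direction. The Clca3b chloride channel regulator (4.50), the transcription factor Sox9 (4.60), the RNA-binding protein Msi1 (4.40), the chromatin regulator Cdca7 (4.45), the water channel Aqp4 (4.49), the potassium channel subunits Kcnq1 (4.26) and Kcne3 (3.78) and the ErbB restraint Lrig1 (3.48) were all higher on the log2 scale. Clca3b and the related Clca3a2 (5.57) are close paralogs, so reads may be shared between them. Msi1, Aqp4 and Clca3a2 passed the count filter only through the members. Vdr (0.08 ± 0.52) and Pdgfa (0.20 ± 0.53) were the tested members of the list that did not pass the threshold. Of genes linked to reserve stem cells, Hopx (0.64 ± 0.51) and Bmi1 (0.68 ± 1.02) did not pass it, while Sox9 and Lrig1, also on that list, did. Clu, a marker of the injury-induced revival state, was at 0 in members, but it was not among the genes tested in this comparison. The 4 called genes of the injury list (Anxa3, Areg, Cxadr and Il33) were all lower. Of the 5 tested, 2 were lower without the Paneth-mixed barcodes, where Cxadr (adjusted p = 0.184) and Il33 (adjusted p = 0.0593) lost their calls, 0 of 3 with thinning as well, and 1 of 5 with DESeq2.

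**Figure D2:**
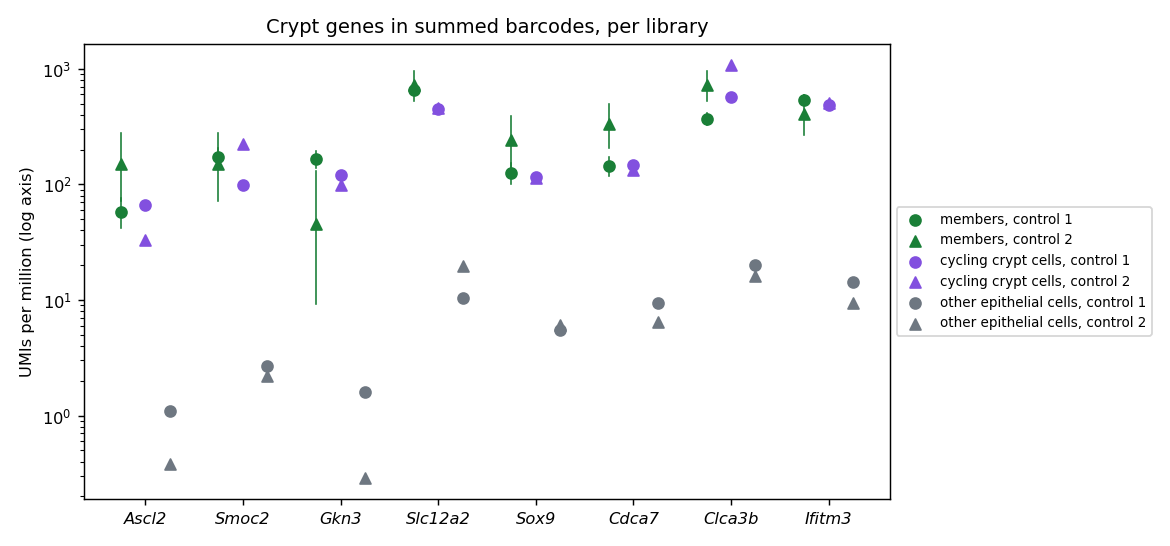
Levels of 8 genes in CPM (log axis) in barcodes summed per library, for members, cycling crypt cells and other epithelial cells; circles are control 1, triangles control 2, and lines on members are 95% Poisson intervals. In each of the 8 genes both members' points lie above both points of the other epithelial cells, and so do both points of the cycling crypt cells.

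Part of the Wnt nuclear effectors and targets were higher in members. Of 15 tested, 9 were higher and 0 lower with a median log2 fold change of 2.63, and 8 were higher without the Paneth-mixed barcodes and 3 of 12 with thinning as well. Of the 9, only Myc and Ccnd1 are not also on the stem list. Myc, the growth-driving transcription factor, had 20.3 and 74.9 CPM in members, against 1.72 and 1.63 CPM in other epithelial cells (4.08 ± 0.83, adjusted p = 3.87e-05). Like Ascl2, Myc passed the count filter only through the members. Ccnd1, the G1 cyclin D1, had 48.3 and 120 CPM, against 7.06 and 6.89 CPM (3.09 ± 0.60, adjusted p = 1.35e-05). Axin2, a feedback inhibitor and common Wnt readout that is on both lists, had 91.5 and 135 CPM, against 6.20 and 13.8 CPM (3.40 ± 0.54). Ctnnb1, the beta-catenin gene (-0.53 ± 0.51), Apc (-0.69 ± 0.51), Tcf7l2 (-0.26 ± 0.52) and Sp5 (-0.33 ± 0.62) did not pass the threshold. None of 9 tested Wnt receptor genes passed, and the nearest were Lgr4 (1.30 ± 0.48, adjusted p = 0.0514) and Ror2 (2.30 ± 0.87, adjusted p = 0.0569).

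Notch genes were higher in part. Of 13 tested, 4 were higher and 0 lower, with a median of 0.57, and 2 were higher without the Paneth-mixed barcodes. Hes1, the repressor that Notch induces, had 163 and 120 CPM in members, against 31.2 and 20.9 CPM in other epithelial cells (2.22 ± 0.51, adjusted p = 0.000413), and it stayed past the threshold without the Paneth-mixed barcodes (adjusted p = 0.0103) and with thinning as well (adjusted p = 0.024). The receptors Notch2 (4.08 ± 0.90) and Notch1 (2.88 ± 0.98) rested on 21 and 1 UMIs and on 13 and 0 UMIs in controls 1 and 2, and both missed the threshold without the Paneth-mixed barcodes (adjusted p = 0.0972 and 0.164). Notch2 passed the count filter only through the members. The ubiquitin ligase Dtx4 was higher by 2.66 ± 0.81.

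A few growth factor pathway genes were called, in both directions, and of those called higher Rgmb and Lrig1 are also on the stem list. Over all tested genes 4.61% were called higher and 9.27% lower. In the BMP list, where 14 genes were tested, Rgmb, a co-receptor (3.73 ± 0.53), and Bambi, a decoy receptor (2.82 ± 0.79), were higher and the target Id2 was lower (-2.16 ± 0.63), though not past the threshold without the Paneth-mixed barcodes (adjusted p = 0.0727). Bambi had 23 UMIs in 3 members of control 1, all Paneth-mixed, and 0 in control 2, and was not tested without them. In the ErbB list of 11, Lrig1 was higher and Egfr (-1.70 ± 0.53), Errfi1 (-2.34 ± 0.58) and Dusp6 (-2.06 ± 0.74) were lower, of which Egfr lost its call without the Paneth-mixed barcodes (adjusted p = 0.0528). Among 11 niche ligands, Wnt3, which Paneth cells make, was called higher with 11 UMIs in 3 members of control 1 and 0 in control 2. It was not tested without the Paneth-mixed barcodes because too few UMIs were left. Areg, an ErbB ligand, had 5.08 and 0 CPM in members, against 39.8 and 33.5 CPM in other epithelial cells (-3.05 ± 0.84), and Nrg1, another, had 0 UMIs in members, at least 21.8-fold lower (3 counts over all members taken as the floor).

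Enterocyte genes were lower in members, and few lineage transcription factors were called. Of 30 enterocyte genes, 28 were lower and 0 higher, with a median log2 fold change of -3.28; 17 were called without the Paneth-mixed barcodes and 10 without the library block. Fabp1, a fatty acid carrier, had 622 and 645 CPM in members, against 16926 and 11439 CPM in other epithelial cells (-4.78 ± 1.08, adjusted p = 0.000315), and it missed the threshold without the Paneth-mixed barcodes (adjusted p = 0.12). Fabp1 had a UMI in 87% and 100% of members and in 78.7% and 77% of lymphocyte-gated barcodes, and the part of free RNA in its level was not tested. Sis, the sucrase-isomaltase of the brush border, had 63.5 and 44.97 CPM, against 1651 and 853 CPM (-4.72 ± 0.72), and it was called under both of these alternatives. The glucose transporter Slc2a2 had 0 and 2 UMIs. Of 23 absorptive and regional transcription factors, Maf (-3.82 ± 0.64), Klf4 (-2.66 ± 0.59) and Creb3l3 (-1.85 ± 0.61) were lower and 0 were higher. The share called lower over all tested genes was 9.27%, so 3 of 23 is near that share and is no result about these factors. Creb3l3 had 450 CPM in control 2 members, against 256 CPM in other epithelial cells. It lost its call without the Paneth-mixed barcodes (adjusted p = 0.15).

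Enteroendocrine genes and part of the goblet genes were lower, while called Paneth genes were higher. Of 16 tested enteroendocrine genes 13 were lower and 0 higher, and 11 of 15 were lower without the Paneth-mixed barcodes. The peptide granule gene Scg2, the prohormone convertase Pcsk1, and the transcription factors Neurod1 and Rfx6 had 0 UMIs in members, at least 12.4-fold, 7.25-fold, 7.29-fold and 3.75-fold lower. Rfx6 lost its call without the Paneth-mixed barcodes (adjusted p = 0.0996). Of 20 goblet genes 8 were lower, and 12 without the Paneth-mixed barcodes, among them Tff3 (-5.07 ± 1.14) and Fer1l6, which had 0 UMIs in members and was at least 58.5-fold lower. The rule's limit on mucus genes bears on this list, since it removed mucus-rich barcodes from the members alone. Among 14 secretory lineage factors, Sox4, linked in mice to secretory and tuft cell fate, was higher with 144 and 135 CPM in members, against 16.0 and 11.4 CPM in other epithelial cells (3.11 ± 0.52, adjusted p = 2.53e-07), while Xbp1 (-1.79 ± 0.55) and Neurod1 were lower. Xbp1 was at adjusted p = 0.0531 without the Paneth-mixed barcodes. Of 22 tested Paneth genes 5 were called higher, and without the Paneth-mixed barcodes 1 was higher and 3 lower of 15. The 1 was Cd24a, a surface glycoprotein (150 and 210 CPM in members, against 32.2 and 54.7 CPM, 1.83 ± 0.50). Habp2, Defa20 and Wnt3 rested on 3 members each, all of them Paneth-mixed, and the lipase-like Pnliprp2 changed direction without the Paneth-mixed barcodes (-0.96, adjusted p = 0.734), where the other 3 were not tested. Lyz1 (-0.12 ± 1.88) and Defa24 (-0.71 ± 3.96) did not pass, with the 2 libraries far apart.

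**Figure D3:**
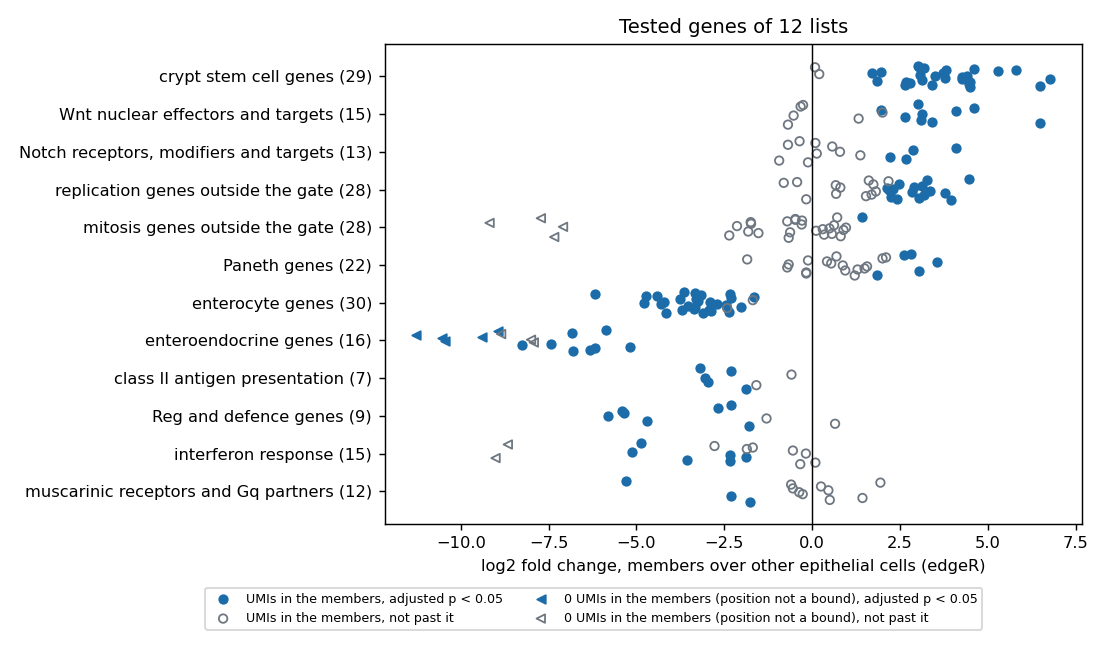
Each point is 1 tested gene, placed by its log2 fold change in members over other epithelial cells, in 12 lists with the number tested in brackets. Filled points passed an adjusted p of 0.05, and triangles had 0 UMIs in members, where the fitted value depends on the prior count and is no bound. The stem list lies right of 0 with 27 of 29 filled, and the enterocyte list left of it with 28 of 30 filled.

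Ifitm3, higher in members than in other epithelial cells, is an interferon-induced membrane protein that limits virus entry and is also known from stem cells. It had 536 and 405 CPM in members, against 14.3 and 9.47 CPM in other epithelial cells, a log2 fold change of 5.02 ± 0.61 with adjusted p = 1e-13. The difference was 5.29 without the Paneth-mixed barcodes and thinned. Ifitm3 was present in 48 of 54 members of control 1 and 7 of 13 of control 2, which is 88.9% and 53.8%, against 5.9% and 3.5% of other epithelial cells and 4.22% and 2.12% of lymphocyte-gated barcodes at median depths of 4012 and 3232 UMIs. Cycling crypt cells carried it too, in 94.9% and 73.7%. At an equal 2000 UMIs it was in 74.5% (35 of 47) and 62.5% (5 of 8) of members, against 57.9% and 50% of cycling crypt cells and 3.37% and 1.62% of other epithelial cells. Among the 20 members with none of the 7 stem markers, 15 carried it, as did 16 of the 17 with 3 or more. At the Olfm4 edge, 11 of 17 members with exactly 2 Olfm4 UMIs had it, against 22 of 88 barcodes with 1 and 102 of 2637 with 0. Ifitm3 is on chromosome 7 at 141009586 to 141010770. Of 15 interferon response genes tested, 6 were lower in members and 0 higher, 4 without the Paneth-mixed barcodes, among them Isg15 (-5.14 ± 0.85). Irf7 (-2.35 ± 0.61) lost its call without them (adjusted p = 0.0764). Ifitm3 was not on that list.

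By size among all tested genes with at least 20 CPM, the largest increases were Slc1a2, a glutamate transporter (8.39 ± 1.14, on 17 and 5 UMIs, and not tested without the Paneth-mixed barcodes), and Htr4, a serotonin receptor (7.02 ± 0.76, with 80.0 and 74.9 CPM in members, against 0.798 and 0.191 CPM), before Gkn3 and Ascl2. Cyyr1, Cttnbp2, Mcc and Dtl followed, from 5.24 to 6.44. Htr4 had a UMI in 7 of 54 and 2 of 13 members, and Slc1a2 and Cyyr1 each in 4 and 1 members, so their sums rest on few cells. Slc1a2, Htr4, Gkn3, Ascl2, Cyyr1, Cttnbp2 and Dtl passed the count filter only through the members, where they were high. The ranking by size is therefore a description.

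**Figure D4:**
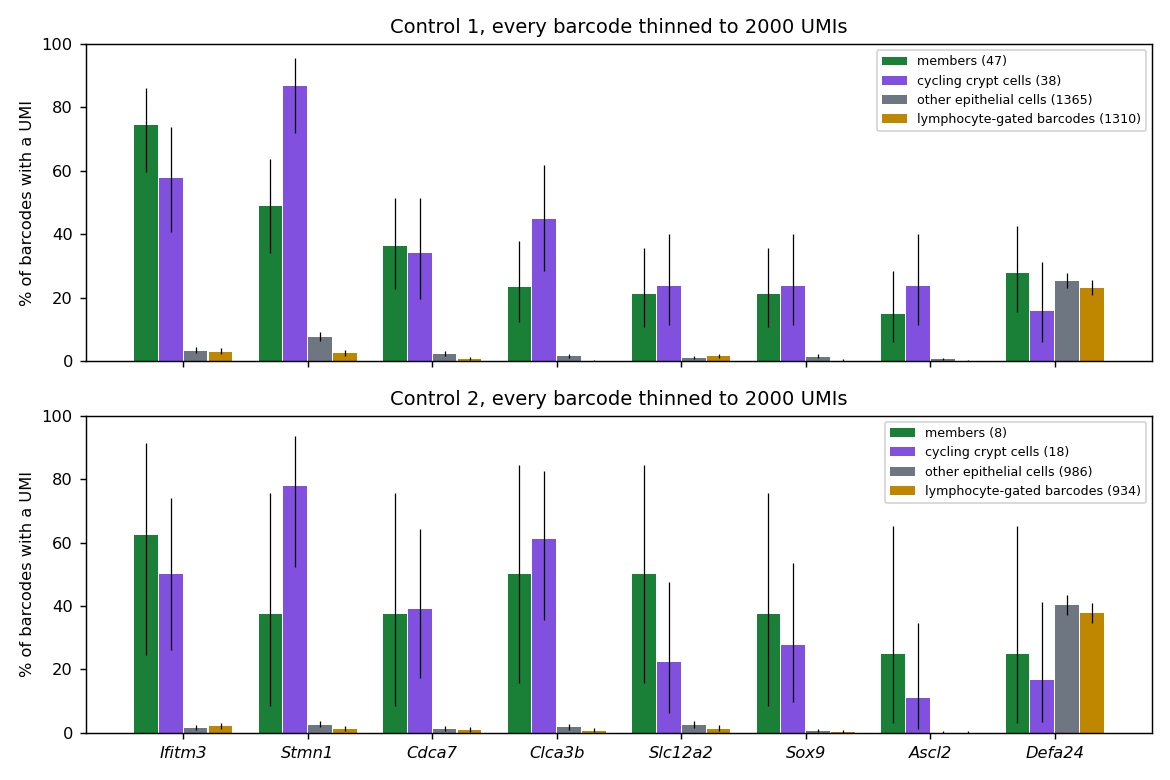
Share of barcodes with at least 1 UMI after every barcode was thinned to 2000 UMIs, for members, cycling crypt cells, other epithelial cells and lymphocyte-gated barcodes (numbers in brackets), with 95% exact binomial intervals that cover counting error only. Ifitm3 stands at 74.5% and 62.5% of members, against 3.37% and 1.62% of other epithelial cells, while Defa24 lies in 27.7% and 25% of members, against 25.3% and 40.4%.

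Cell cycle genes outside the rule split into replication and mitosis. Of 28 tested replication genes, 16 were higher in members than in other epithelial cells and 0 lower, with a median log2 fold change of 2.21. Without the Paneth-mixed barcodes 15 were higher, with thinning as well 2 of 14, and with DESeq2 10 of 28. The helicase subunits Mcm2 (3.78 ± 0.81) and Mcm5 (3.34 ± 0.91), the uracil glycosylase Ung (4.46 ± 0.99) and cyclin E1, Ccne1 (3.95 ± 1.40), led them. Mcm5 had 18 UMIs in 14 members of control 1 and 1 UMI in control 2. Ung rested on 14 and 2 UMIs and Ccne1 on 4 and 2 UMIs in members of controls 1 and 2. Both passed the count filter only through the members, and DESeq2 gave no adjusted p for Ccne1. The list's summed level was 621 and 1559 CPM in members, against 235 and 188 CPM in other epithelial cells, with 2084 and 2417 CPM in cycling crypt cells. Of 28 tested mitosis genes 1 was higher, the tubulin Tubb5 (1.41 ± 0.51, adjusted p = 0.0449), and 0 lower, but the rule bounds these genes in members alone. Tubb5 was at adjusted p = 0.0685 without the Paneth-mixed barcodes. Among 15 genes that restrain the cycle, 6 were lower and 0 higher, and 2 were lower without the Paneth-mixed barcodes. Cdkn1a, the p21 inhibitor, had 7.62 and 89.9 CPM in members, against 217 and 246 CPM (-3.54 ± 0.62), and Cdkn2b, the p15 inhibitor, had 11.4 and 0 CPM, against 111 and 95.5 CPM (-3.47 ± 0.64).

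Several antigen presentation genes, mainly in control 1, and most tested defence genes were lower in members. Of 7 tested class II genes 5 were lower, 3 without the Paneth-mixed barcodes and 2 without the library block. With the Paneth-mixed barcodes left out and cells thinned, 1 of 6 was lower. The list summed to 133 CPM in control 1 members and 1094 CPM in control 2 members, against 1407 and 1263 CPM in other epithelial cells. H2-Eb1 had 14.0 and 30.0 CPM, against 157 and 126 CPM in other epithelial cells (-3.18 ± 0.61, adjusted p = 1.02e-05), and H2-Ab1 had 14.0 and 120 CPM, against 288 and 226 CPM (-3.06 ± 0.60). Cd74, the invariant chain, had 71.1 and 749 CPM, against 673 and 679 CPM (-1.88 ± 0.62, adjusted p = 0.0227). The control 2 value of Cd74 lay above both of the other cells, and 33 of its 50 UMIs were in that library's enterocyte-rich member. The call was lost without the Paneth-mixed barcodes (adjusted p = 0.231) and without the block (adjusted p = 0.314). Of 9 Reg and defence genes 7 were lower, 5 without the Paneth-mixed barcodes, among them Reg1 (128 and 30.0 CPM, against 5086 and 2130 CPM, -5.80 ± 0.91) and Reg3b (-5.42 ± 0.74). Immunoglobulin and hemoglobin transcripts, which come from cells outside the epithelium, were lower in members too, with Igkc at 25.4 and 60.0 CPM, against 2545 and 1449 CPM (-6.04 ± 0.83), and Hbb-bs at 254 and 749 CPM, against 2571 and 4468 CPM (-3.28 ± 0.79). Hbb-bs was not past the threshold without the Paneth-mixed barcodes (adjusted p = 0.0658). Of 20 lymphocyte genes the chemokine Ccl5 was lower and 0 were higher, and of 5 tuft genes Cd24a was higher and the leukotriene synthase Ltc4s lower. Ccl5 (adjusted p = 0.157) and Ltc4s (adjusted p = 0.181) lost their calls without the Paneth-mixed barcodes. Of 16 dissociation and stress genes 0 were called with edgeR and 1 with DESeq2, and the edgeR values ran from -1.64 ± 0.77 for Dnajb1 to 1.45 ± 0.56 for Hspe1.

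The muscarinic receptor genes that give the series its subject were sparse. Chrm1, the M1 receptor, had 2 UMIs in 2 members of control 1, both Paneth-mixed, and 0 in control 2, at 2.54 and 0 CPM, against 1.10 and 5.07 CPM in other epithelial cells (0.50 ± 1.63). Chrm3, the M3 receptor, had 159 UMIs in 7 members of control 1 and 7 UMIs in 1 member of control 2. Its level was 202 and 105 CPM in members, against 32.4 and 86.6 CPM in other epithelial cells, and 18.5 and 14.5 CPM in lymphocyte-gated barcodes. The difference of 1.43 ± 0.56 did not pass (adjusted p = 0.0667) and turned round to -0.04 without the Paneth-mixed barcodes, -0.77 with every barcode thinned to 2000 UMIs and -0.64 without barcodes over 50000 UMIs. Among 12 muscarinic and Gq pathway genes, Rgs2, a Gq restraint (-5.30 ± 0.96), the Gq-class subunit Gna11 (-2.31 ± 0.59) and the cholinesterase Bche (-1.77 ± 0.58) were lower and 0 were higher. Gna11 (adjusted p = 0.11) and Bche (adjusted p = 0.203) lost their calls without the Paneth-mixed barcodes. Malat1, at 1674 and 8034 CPM in members, against 3037 and 9528 CPM, did not differ past the threshold (-0.88 ± 0.85).

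Set against cycling crypt cells, which met every other part of the rule, the members had lower levels of mitosis genes, while no stem gene passed the threshold. The comparison of 67 members with 58 cycling crypt cells tested 6639 genes and called 52 higher in members (0.783%) and 84 lower (1.27%). All of these calls were lost without the library block, where 0 genes were called in either direction with edgeR although 568 had an unadjusted p under 0.05, and DESeq2 called 13 higher and 3 lower. Members were shallower, with median totals of 4580 and 2506 UMIs, against 9522 and 7574 UMIs in cycling crypt cells. Of 30 tested stem genes 0 were called, with a median of 0.50. Ascl2 had 57.2 and 150 CPM in members, against 66.1 and 33.0 CPM in cycling crypt cells (0.83 ± 0.53), and Smoc2 had 174 and 150 CPM, against 99.2 and 223 CPM (0.36 ± 0.54). In both genes the values of the 2 groups overlap. A missed threshold does not show that the levels are alike.

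Of 29 mitosis genes 23 were lower in members and 0 higher, and 13 were lower without the Paneth-mixed barcodes. Genes that share a cell cycle phase with the rule's 6 genes follow from the choice of cells and are a description. Nusap1, Tpx2, Aurkb and Hmmr, which act on the mitotic spindle, had 0 UMIs in members, at least 27.4-fold, 15.2-fold, 13.5-fold and 11.2-fold lower. Of 29 replication genes the ribonucleotide reductase subunit Rrm2 (-4.14 ± 0.97) and the thymidylate synthase Tyms (-1.91 ± 0.56) were lower, and 27 did not pass. Tyms lost its call without the Paneth-mixed barcodes (adjusted p = 0.407). Their summed level of 621 and 1559 CPM in members lay below the 2084 and 2417 CPM of cycling crypt cells. Of 18 enterocyte genes 8 were called higher in members, led by Apoa4 (4.44 ± 1.06) and Apoa1 (4.04 ± 1.02). The count was 2 of 17 without the Paneth-mixed barcodes, where Apoa4 (adjusted p = 0.948) and Apoa1 (adjusted p = 0.278) lost their calls, 3 with DESeq2 and 0 without the block. Apoa1 stood at 218 and 4946 CPM in members, against 75.0 and 53.6 CPM in cycling crypt cells. Without the enterocyte-rich member of control 2, its level there was 83.6 CPM. Creb3l3 (450 CPM in control 2, 83.6 CPM without that member) and the nuclear RNA Neat1 (719 and 188 CPM) moved with it. Neat1 lost its call without the Paneth-mixed barcodes (adjusted p = 0.459), and Creb3l3 was not tested there. Defa22 was called higher on 786 and 1 UMIs and was not tested without the Paneth-mixed barcodes. The endocrine genes Insm1 (0 UMIs in members, at least 7.06-fold lower) and Cck were lower, and Cck stood at 1246 CPM in control 1 cycling cells and 30.9 CPM in control 2. Cck lost its call without the Paneth-mixed barcodes (adjusted p = 0.071), and Insm1 was not tested there. Lyz1 (-0.34 ± 1.64), Defa24 (0.59 ± 3.16), Chrm3 (1.72 ± 0.54, adjusted p = 0.0678), Malat1 (1.13 ± 1.10) and Cd74 (-0.12 ± 0.60) did not pass.

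Within the members, Chrm3 was the only gene called between Lgr5-positive and Lgr5-negative cells, and most of its UMIs lay in Paneth-mixed members. The 11 Lgr5-positive members (8 and 3) held 517463 and 33262 UMIs, and the 56 Lgr5-negative ones (46 and 10) held 269765 and 33452, so the first were far deeper per cell, with medians of 52050 and 12590 UMIs, against 4092 and 2421. Of 1936 genes tested, 1 was higher in Lgr5-positive members (0.0517%) and 0 lower (0%), with 187 at an unadjusted p under 0.05. DESeq2 called 0. Chrm3 had 305 and 210 CPM in Lgr5-positive members, against 3.71 and 0 CPM in Lgr5-negative ones, a log2 fold change of 7.05 ± 1.62 with adjusted p = 0.0287 by edgeR's quasi-likelihood test. The groups do not overlap. With 1 and 0 UMIs in Lgr5-negative members, Chrm3 passed the count filter only through the group where it was high. DESeq2 gave adjusted p = 0.05, just short of a call. Single cells carry this value. In control 1, 6 of 8 Lgr5-positive members had Chrm3, with 101 UMIs in the member with 98 of Lgr5, 39 in that with 36, 8 in that with 18, 6 in that with 4, 3 in that with 3 and 1 in one with 1. Those with 101, 39, 3 and 1 Chrm3 UMIs were Paneth-mixed. In control 2, the member with 5 Lgr5 UMIs had 7 of Chrm3 and the 2 others had 0. Among the 56 Lgr5-negative members 1 had 1 UMI, and it was Paneth-mixed too.

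**Figure D5:**
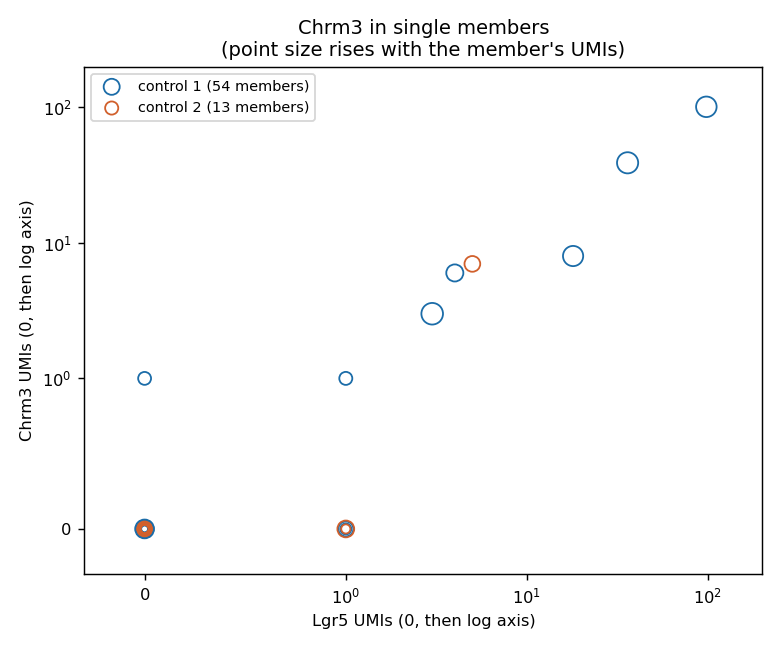
Lgr5 and Chrm3 UMIs of the 67 members (0 followed by a log axis on both), coloured by library, with larger points for members with more UMIs. Members with 3 or more Lgr5 UMIs had 3 to 101 Chrm3 UMIs, and Lgr5-negative members lie at 0 except 1 with 1 UMI.

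The Chrm3 difference could not be checked at equal depth. The gene was not tested once cells were thinned, once the Paneth-mixed barcodes were left out or once cells above 50000 UMIs were left out, because too few UMIs remained. Without the Paneth-mixed barcodes the level of Chrm3 over all members of control 1 was 36.7 CPM, against 202 CPM with them, and the 4 with over 50000 UMIs were all Lgr5-positive. Chrm3 is a long gene, on chromosome 13 at 9875486 to 10360847, and no source used here gives whether reads in introns were counted. Ascl2 (-1.39 ± 1.00), Smoc2 (2.20 ± 1.07), Cd74 (0.44 ± 1.12), Malat1 (3.12 ± 3.42), Lyz1 (3.06 ± 6.31) and Defa24 (2.48 ± 18.68) did not pass the threshold between the 2 kinds of members.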

How the data were processed

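The deposited files hold UMI counts per gene and barcode, made with Cell Ranger 7.1.0 per the file headers. Per the submitters' processing notes, the builds were GRCm38 and mm10, and Cell Ranger 6.1 is listed beside 7.1.0. No source used here gives the counting of introns, the barcode filter or the annotation release. No barcode was both a member in control 1 and in control 2.

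The counts were summed per library and cell group and tested with edgeR 4.0.16 in R 4.3.3 (quasi-likelihood test, TMM scaling, low counts filtered by filterByExpr, library as a block, Benjamini-Hochberg adjustment over all tested genes, threshold 0.05). The block is the library itself, since both cell groups of a sum pair come from 1 suspension. The 14 rule genes and mitochondrial genes were not tested. Standard errors are the log2 fold change divided by the square root of the F statistic, an approximation. CPM scales a group's UMIs of a gene to the group's summed UMIs, and the floor behind "at least" is 3 counts over all members. Sums lean on few deep cells, so alternatives left out Paneth-mixed barcodes, deep barcodes, high mitochondrial shares and top Scrublet scores, thinned cells to 2000 UMIs, dropped the block, scaled by total UMIs, skipped the filter or used DESeq2 1.42.0. The alternative that leaves out Paneth-mixed barcodes and thins together was added after seeing the data. The fit was tested on simulated data.

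Members and gene lists were chosen with earlier results of these data known. Named genes are up to 4 called genes per list and direction, the 12 largest and 12 smallest fold changes at 20 CPM or more, and 8 fixed genes. Other genes, Ifitm3 among them, were named after their values were seen, and some that the rule names are not reported here. Depth was 54451793 UMIs in 9342 barcodes (control 1) and 36139325 in 7109 (control 2). Promoter windows are from RefSeq's GRCm38.p6 table, and gene positions from GENCODE M21.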

Additional observations from a re-analysis of the deposited data

Results flagged for a closer look

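Barcodes outside the gene and mitochondrial limits were not analysed, yet 5 in control 1 and 1 in control 2 met every other part of the rule for non-cycling crypt stem-like cells, against 54 and 13 within the limits. In control 1, 3 of these had too high a mitochondrial share and 3 too few genes, with 1 in both counts. They were flagged because they lie in data that the comparisons did not use, and they entered no sum or test.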

How the results depend on the processing

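The mean share of members was 1.8% of epithelial barcodes, 0.306% with Lgr5 alone as the criterion, and 0.946 to 2.66% with 1 library left out. Against other epithelial cells, 515 genes were higher and 1036 lower. The counts were 50 and 116 after thinning to 2000 UMIs, 221 and 348 without barcodes over 50000 UMIs, 298 and 534 under 10% mitochondrial UMIs, 318 and 489 without Paneth-mixed barcodes, 46 and 106 without them and thinned, 250 and 340 with total UMIs only, 267 and 418 with DESeq2, and 82 and 144 with Lgr5 alone. Without the library block, which pairs the cell groups of a library, they were 485 and 492, and with at least 5 Olfm4 UMIs or Lgr5 683 were lower. Of the 515 and 1036 genes, 159 and 262 were also called in all of 3 fits (without Paneth-mixed barcodes, without the block, DESeq2), and 0 were called in the opposite direction in any alternative. Scaling by total UMIs moved the median of all genes from -0.22 to -0.11.

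Against cycling crypt cells, 52 genes were higher and 84 lower. The counts were 0 and 0 after thinning, without barcodes over 50000 UMIs and without the block, 12 and 25 without the top 6% of Scrublet scores, 10 and 34 without Paneth-mixed barcodes, 11 and 13 without them and thinned, 3 and 36 without barcodes with 2 or more T-cell UMIs, and 13 and 3 with DESeq2. Under 10% mitochondrial UMIs 21 were higher. For Lgr5-positive against Lgr5-negative members, 1 gene was higher and 0 lower. The numbers higher were 0 after thinning, with DESeq2, without a filter and without Paneth-mixed barcodes and thinned, 2 under 10% mitochondrial UMIs and without Paneth-mixed barcodes, 3 without the block, 17 without T-cell UMIs, 42 without the top Scrublet scores and 12 with total UMIs only. The numbers lower were 3, 1 and 2 in the last 3 of these. The cause was not tested.

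Several genes changed direction against other epithelial cells. Chrm3 was at -0.77 thinned, -0.64 without deep barcodes, -0.04 without Paneth-mixed barcodes and -1.19 with both. Lyz1 was at 2.07 thinned, 0.08 without deep barcodes, 0.14 under 10% mitochondrial UMIs, 0.12 without Paneth-mixed barcodes, 0.79 without them and thinned, 3.13 without the block and 0.15 with total UMIs. Defa24 was at 0.54 thinned, 0.31 without Paneth-mixed barcodes and 3.03 without the block. Chrm1 was at -0.29 without the block. Pnliprp2 was at -0.96 without Paneth-mixed barcodes and -0.04 without T-cell UMIs. Bambi was at -7.04 and Habp2 at -7.03 without deep barcodes, and Habp2 at -6.81 without T-cell UMIs, which are fitted values at 0 UMIs and no bounds. With 1 library left out, given as a log2 ratio of CPM + 1 with no test, the ranges were -2.79 to 3.13 for Bambi, -2.52 to 0.33 for Bche, -3.32 to 0.05 for Ccng2, -3.22 to 0.14 for Cd74, -3.95 to 0.81 for Creb3l3, -1.68 to 2.85 for Defa20, -2.51 to 3.90 for Habp2, -1.23 to 2.53 for Notch1, -1.03 to 4.31 for Pnliprp2 and -1.54 to 2.49 for Wnt3.

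Against cycling crypt cells, Apoa4 was at -0.46 without T-cell UMIs, Cck ranged from -8.46 to 0.53 with 1 library left out, Malat1 was at -1.07 under 10% mitochondrial UMIs, and Smoc2 was at -0.20 without deep barcodes. Cd74 was at 0.66 thinned, 0.16 without Paneth-mixed barcodes, 0.71 with both and 0.32 without the block. Lyz1 was at 0.32 thinned, 2.42 without deep barcodes, 0.31 under 10% mitochondrial UMIs, 3.17 without T-cell UMIs and 0.54 without the block. Between Lgr5-positive and Lgr5-negative members, Cd74 was at -0.45 under 10% mitochondrial UMIs, -0.37 without T-cell UMIs and -0.13 without a filter. With 13 members in control 2, low genes rest on a few UMIs there. With 1 library left out, 466 to 515 and 964 to 1036 of the genes called against other epithelial cells, and 51 to 51 and 83 to 84 of those called against cycling crypt cells, kept their direction in the remaining library, with no test.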
